A study of Mus musculus with 16 samples.

Results

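The Hox genes are the homeobox transcription factors of the HoxA, HoxB, HoxC and HoxD clusters, and 38 of them were found by name among the 41174 non-control probes of an Agilent mouse array hybridised with RNA of Npc1-/- or wild-type cerebellum. They carried 49 probes, with 2 probes for each of 11 genes. Members were taken by gene name alone, without regard to signal. Of the 38, 19 were well above background on at least 1 of 8 arrays with the brighter of their probes, and a 20th, Hoxb9, was so on 1 array with its other probe. The remaining 18 were not well above background on any array with any probe. Only 14 members were well above background on at least 4 arrays, the limit for testing, out of 17983 genes tested in all.

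The Npc1-/- group was 4 mice homozygous for the mutant allele of the strain BALB/cNctr-Npc1m1N/J, and the wild-type group was 4 Npc1+/+ mice, all on a BALB/c background and all sampled at 3 weeks of age. Npc1 encodes a lysosomal membrane protein that exports cholesterol, and the mutation is carried in every cell of the animal. Whole cerebella were frozen, and the labels number 4 one-colour Agilent arrays in each genotype without saying which mouse went on which array. The labels do not state where the cut between cerebellum and brainstem was made. The series also holds 8 samples of an Illumina platform, whose table pairs probe numbers with no gene names and was not used here.

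Hox genes give cells along the body axis their position. Genes at the 3′ end of a cluster, with low paralog numbers, are switched on in the anterior hindbrain, and genes towards the 5′ end are switched on in progressively more posterior hindbrain and spinal cord. The cerebellum forms largely from the first hindbrain segment and its rhombic lip, in front of the territory of Hox expression, while neurons of the pons and medulla, among them those that send axons into the cerebellum, arise within it and keep Hox expression after birth. HOX proteins bind DNA through the homeodomain, mostly together with PBX and MEIS cofactors. In bulk tissue, fewer cells of a type and less RNA per cell cannot be told apart.

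Promoter windows of 300 bases, running from 250 bases before to 50 after the gene's start, were available from RefSeq (GRCm38.p6) for 22 Hox genes, of which 8 were tested members. The composite PBX and HOX site TGATTNAT was found on either strand in the window of 1 tested member, Hoxa2, against 3.22% of 32851 promoters of the same length. The MEIS site TGACAG was found in Hoxa2 and Hoxa3, against 19.2% of promoters. The sequence TATAAA was found in Hoxd4, against 13.6%, and the homeodomain core TAATTA in none of the 8, against 5.29%. The windows of Hoxa2 (chr6:52164782-52165081, minus strand) and Hoxd4 (chr2:74721728-74722027, plus strand) are printed because Hoxa2 held both cofactor motifs and Hoxd4 lies in another cluster. Capitals mark the matches, which are TGATTNAT on the opposite strand and TGACAG in Hoxa2, and TATAAA on the opposite strand in Hoxd4. A match of these letters is a description and not evidence of binding.
Hoxa2 promoter: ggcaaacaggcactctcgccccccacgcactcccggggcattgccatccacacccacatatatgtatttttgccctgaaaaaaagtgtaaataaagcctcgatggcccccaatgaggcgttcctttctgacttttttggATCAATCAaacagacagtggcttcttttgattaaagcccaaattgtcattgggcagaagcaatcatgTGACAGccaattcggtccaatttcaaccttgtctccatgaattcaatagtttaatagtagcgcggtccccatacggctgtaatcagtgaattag
Hoxd4 promoter: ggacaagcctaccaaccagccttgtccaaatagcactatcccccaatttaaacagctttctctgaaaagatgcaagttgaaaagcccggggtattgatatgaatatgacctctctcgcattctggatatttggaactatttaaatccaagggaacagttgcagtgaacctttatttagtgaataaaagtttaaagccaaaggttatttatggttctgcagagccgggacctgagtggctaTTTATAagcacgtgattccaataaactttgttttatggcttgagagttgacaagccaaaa

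Signals are given as a percentage of the 75th percentile of each array's non-control probes, so that arrays can be set side by side. Npc1 itself checked the labels, at 17.3, 18.4, 20.0 and 16.5% on Npc1-/- arrays 1 to 4 and 69.7, 76.0, 64.2 and 77.3% on wild-type arrays 1 to 4. Between 25958 and 28137 probes were well above background on 7 arrays, and 22182 on wild-type array 2. The lowest signal that counted as well above background was 6.70% on wild-type array 2 and between 1.52 and 2.43% on the others. Probes that did not reach it had a median of 1.72% on wild-type array 2 and between 0.423 and 0.654% on the other arrays. A value of about 0.4% is therefore a background reading, and wild-type array 2 could show as detected only transcripts brighter than elsewhere. Cerebellar identity genes such as Calb1, Cbln1 and Zic1 were bright on all arrays. Of 20 such genes 17 were tested, and the 3 below background on every array, En1, Atoh1 and Ptf1a, are genes of the embryonic or early postnatal cerebellum.

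From paralog group 2 upwards, detection was lower at high paralog numbers. Group 1 did not follow this, since Hoxb1 and Hoxd1 were not well above background on any array. Among members of paralog groups 2 to 7, 16 of 17 were well above background on at least 1 array and 13 on at least 4 arrays. In groups 8 and 9 it was 2 of 7, and in groups 10 to 13 none of 11. By cluster, the count on at least 1 array was 8 of 11 in HoxA, 7 of 10 in HoxB, 3 of 8 in HoxC and 1 of 9 in HoxD. The gaps in the range from 2 to 7 were therefore few, and Hoxd3 was the one member of it not detected. These counts rest on the array's own rule for signal over local background. With the more permissive rule that a signal be positive and significant, 16 to 27 members passed on Npc1-/- arrays and 14 to 22 on wild-type arrays.

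**Figure D1:**
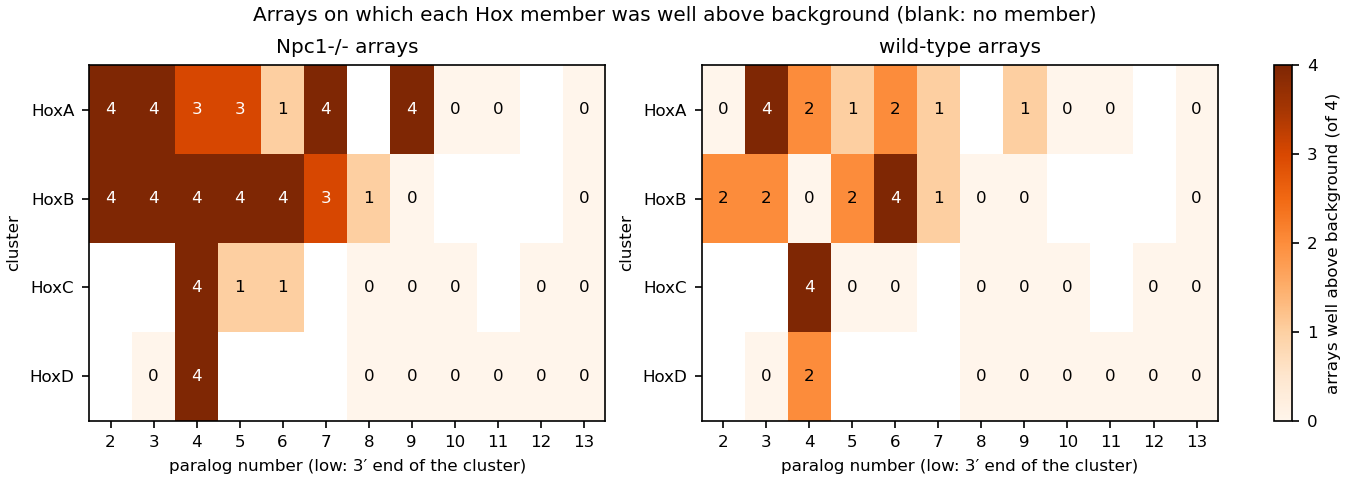
Number of arrays (0 to 4) on which each Hox member was well above background, in Npc1-/- arrays (left) and wild-type arrays (right), by cluster (vertical axis) and paralog number from 2 (horizontal axis), with blanks where no member was on the array. Members of paralog groups 2 to 7 carry nearly all of the detection, and groups 10 to 13 show 0 throughout.

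The arrays differed widely in how many members they detected. On Npc1-/- arrays 1 to 4 the number was 11, 16, 17 and 14 of 38. On wild-type arrays 1 to 4 it was 5, 11, 3 and 9. The lowest Npc1-/- array thus equalled the highest wild-type array, and the wild-type arrays ran from 3 members to 11. Of all probes, 63.0 to 68.3% were well above background on Npc1-/- arrays and 53.9 to 67.8% on wild-type arrays. These counts used unlike limits. Members that reached the limit of wild-type array 2 (6.70%) numbered 3, 8, 11 and 12 on Npc1-/- arrays 1 to 4. On wild-type arrays 1 to 4 they numbered 3, 11, 3 and 3. Only Hoxa3, Hoxb6 and Hoxc4 were above background on all 8 arrays.

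The group 2 genes, which have the most anterior Hox domains and pattern the hindbrain segments just behind the cerebellar one, were among the variable members. Hoxa2, at chr6:52125851-52125910, had 1.87, 2.99, 4.84 and 7.39% on Npc1-/- arrays 1 to 4 and 0.398, 6.01, 0.375 and 1.15% on wild-type arrays 1 to 4. All 4 Npc1-/- values and none of the wild-type values were well above background, yet wild-type array 2 had the second highest signal of the 8, under the high limit of that array. Hoxb2, the HoxB gene that supports facial motor neuron identity, had 3.77, 18.4, 27.7 and 36.6% on Npc1-/- arrays and 1.32, 32.7, 0.586 and 5.07% on wild-type arrays. Its wild-type values lay both above and below most Npc1-/- values, so the groups overlapped.

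Group 3 split into a flat member and a variable one. Hoxa3, which patterns the caudal hindbrain and pharyngeal arches, had 20.3, 13.7, 14.9 and 22.0% on Npc1-/- arrays and 12.1, 19.2, 17.9 and 20.5% on wild-type arrays. No array stood apart with this brighter probe, and the highest value was 1.82 times the lowest. The other Hoxa3 probe was not well above background on any array. It had 0.434, 2.29, 1.94 and 2.81% on Npc1-/- arrays and 0.505, 1.79, 0.472 and 0.403% on wild-type arrays. Like the variable members it was higher on Npc1-/- arrays 2 to 4 and wild-type array 2. On wild-type array 2, however, the median background reading was 1.72%. Hoxb3, which acts in the same hindbrain territory, had 3.59, 6.91, 11.6 and 21.3% on Npc1-/- arrays and 2.07, 20.2, 1.20 and 2.24% on wild-type arrays. Wild-type array 2 lay within the Npc1-/- range, and the other 3 wild-type arrays lay below it. Hoxd3 was not detected on any array.

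Group 4, whose anterior limit lies in the caudal medulla, had all 4 members tested. Hoxa4 had 1.19, 4.59, 8.05 and 14.7% on Npc1-/- arrays and 0.415, 11.2, 0.382 and 1.98% on wild-type arrays. Hoxb4 had 1.69, 2.20, 4.30 and 5.92% on Npc1-/- arrays and 0.760, 4.62, 0.474 and 1.33% on wild-type arrays. Both showed wild-type array 2 next to the highest Npc1-/- arrays, while wild-type arrays 1 and 3 gave background readings. Hoxd4 had 1.72, 6.10, 9.77 and 17.0% on Npc1-/- arrays and 0.380, 14.9, 0.351 and 1.74% on wild-type arrays. Hoxc4 had 13.4, 13.9, 12.4 and 13.1% on Npc1-/- arrays and 13.6, 11.5, 8.65 and 13.7% on wild-type arrays. Of the 4 paralogs it alone was nearly level, with wild-type array 3 lowest.

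Group 5 held the member with the widest range. Hoxb5, at chr11:96414855-96414914, had 2.95, 37.8, 83.6 and 111% on Npc1-/- arrays and 0.460, 92.0, 0.417 and 2.20% on wild-type arrays. The brightest array was at least 63.9 times the dimmest, which was below background and was set at the lowest signal well above background there. Hoxa5, which acts in hindbrain, cervical cord and lung, had 0.393, 8.58, 14.1 and 18.1% on Npc1-/- arrays and 0.411, 23.0, 0.388 and 0.723% on wild-type arrays. Npc1-/- array 1 read at background like wild-type arrays 1 and 3, while wild-type array 2 was the brightest of all 8. Hoxc5 was above background on Npc1-/- array 3 alone.

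Group 6 turned on the choice of probe. The brighter Hoxb6 probe, at chr11:96408006-96408065, had 34.8, 34.7, 31.7 and 38.2% on Npc1-/- arrays and 28.3, 39.5, 41.9 and 38.8% on wild-type arrays. The other Hoxb6 probe, at chr11:96410288-96410347 and 2282 bases away, had 2.09, 37.5, 69.4 and 92.6% on Npc1-/- arrays and 0.801, 108, 0.965 and 1.40% on wild-type arrays. One probe was flat and the other, like Hoxb5, was high on Npc1-/- arrays 2 to 4 and wild-type array 2, so the gene's name covers discordant readings. With every probe tested by itself the fitted differences were -0.08 and 3.02 log2 units. Which transcripts each probe reads was not analysed here. Hoxa6 was above background on Npc1-/- array 2 and wild-type arrays 1 and 4, at 2.36, 2.55 and 3.06%, an order unlike that of the other variable members. Hoxc6 was above background on Npc1-/- array 3 alone.

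**Figure D2:**
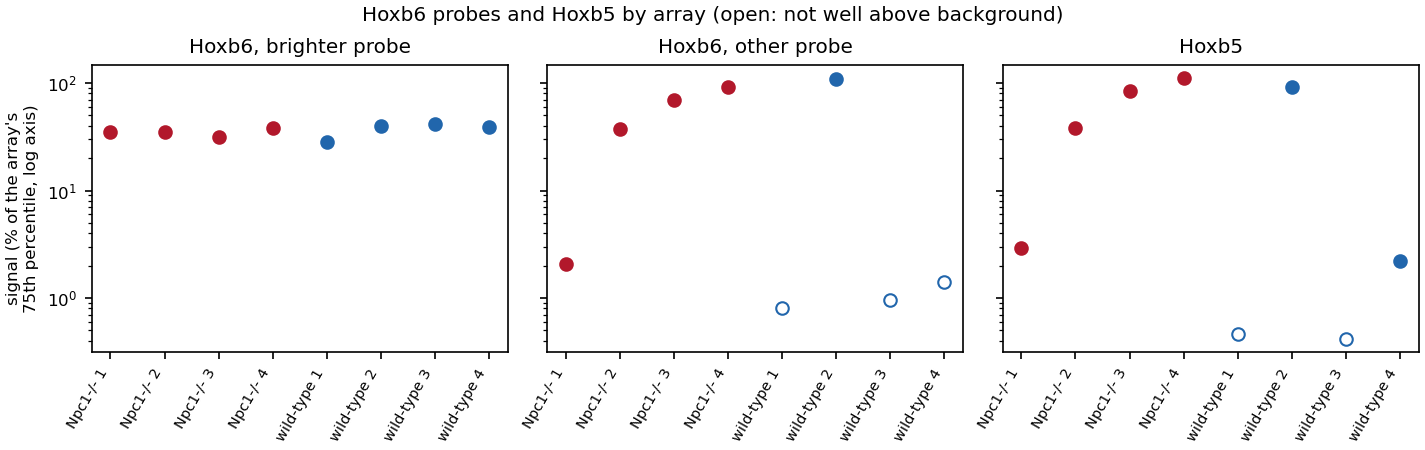
Signal by array (horizontal axis, Npc1-/- in red and wild type in blue) of the brighter Hoxb6 probe, the other Hoxb6 probe and Hoxb5, as a percentage of the array's 75th percentile on a log axis, with open points where not well above background. The brighter Hoxb6 probe stays between 28.3 and 41.9%, while the other runs from 0.801 to 108%, like Hoxb5.

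The groups with higher numbers, which belong to caudal hindbrain and spinal cord, faded out. Hoxa7 had 2.68, 3.56, 9.23 and 9.21% on Npc1-/- arrays and 1.35, 14.0, 1.33 and 2.11% on wild-type arrays. Hoxb7 had 0.360, 5.68, 12.2 and 12.5% on Npc1-/- arrays and 0.399, 22.5, 0.377 and 0.339% on wild-type arrays. For both, wild-type array 2 was the brightest array. Hoxa9, the most 5′ member tested, had 2.05, 3.02, 3.12 and 5.50% on Npc1-/- arrays and 2.14, 5.17, 0.898 and 1.55% on wild-type arrays. Hoxb8 was above background on Npc1-/- array 3 alone, at 1.75%, and the other probe of Hoxb9 on wild-type array 4 alone, at 2.57%. The members never above background with any probe were Hoxa10, Hoxa11, Hoxa13, Hoxb1, Hoxb13, Hoxc8, Hoxc9, Hoxc10, Hoxc12, Hoxc13, Hoxd1, Hoxd3, Hoxd8, Hoxd9, Hoxd10, Hoxd11, Hoxd12 and Hoxd13.

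**Figure D3:**
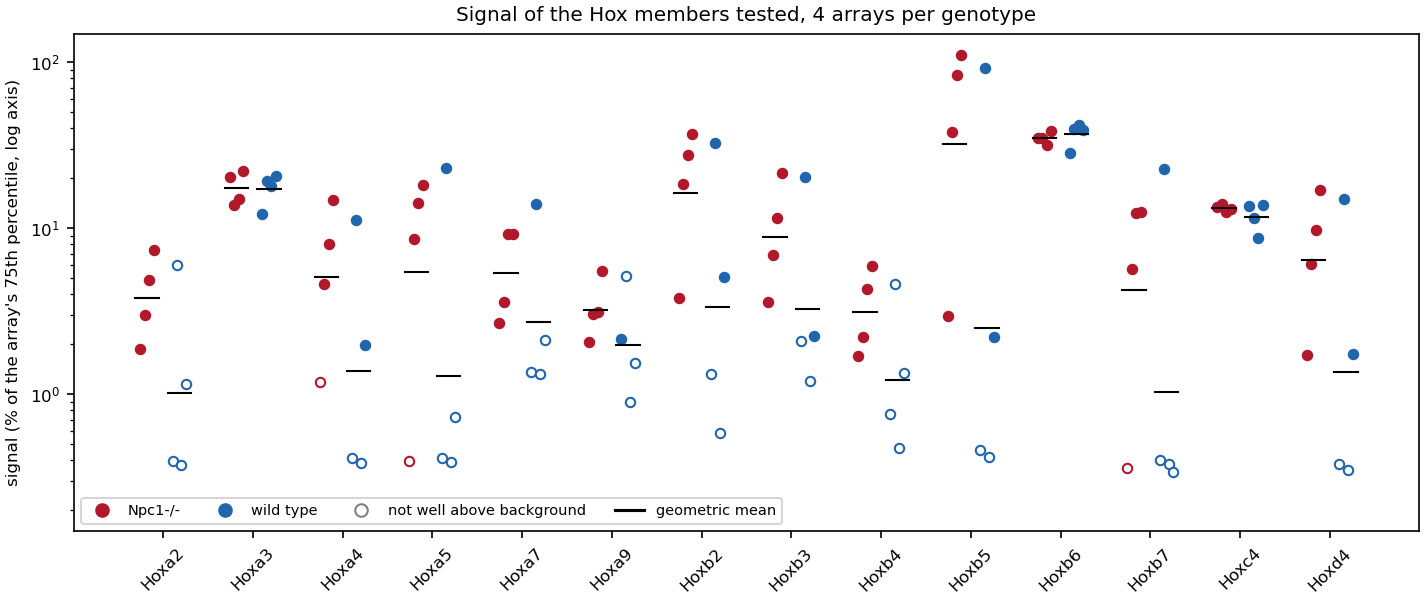
Signal of the 14 Hox members tested on each array, as a percentage of the array's 75th percentile on a log axis, with Npc1-/- arrays left of wild-type arrays for each member, bars at the geometric mean and open points where not well above background. The groups overlap for all 14, and 1 wild-type array lies among the brighter Npc1-/- arrays for most.

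Seen array by array, the variable members had their higher signals on the same arrays. In 11 of the 14, Npc1-/- arrays 2, 3 and 4 and wild-type array 2 all lay above Npc1-/- array 1 and wild-type arrays 1, 3 and 4. This division was seen in the values and is given as a description without a test, and 0.984% of all genes tested divided in the same way. That share covers genes of any signal. Hoxa5 and Hoxb7 passed the filter of 4 arrays through exactly these 4, so their division is not independent of the filter. The exceptions were Hoxa3 and Hoxb6, each with its brighter probe, and Hoxc4, which are the 3 members above background on all arrays. Many of the lower readings were at background, and in Hoxa2, Hoxa9 and Hoxb4 the reading of wild-type array 2 was itself not well above background. The division crossed the genotypes and the slides, since wild-type array 2, Npc1-/- array 1 and Npc1-/- array 4 shared slide 3.

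**Figure D4:**
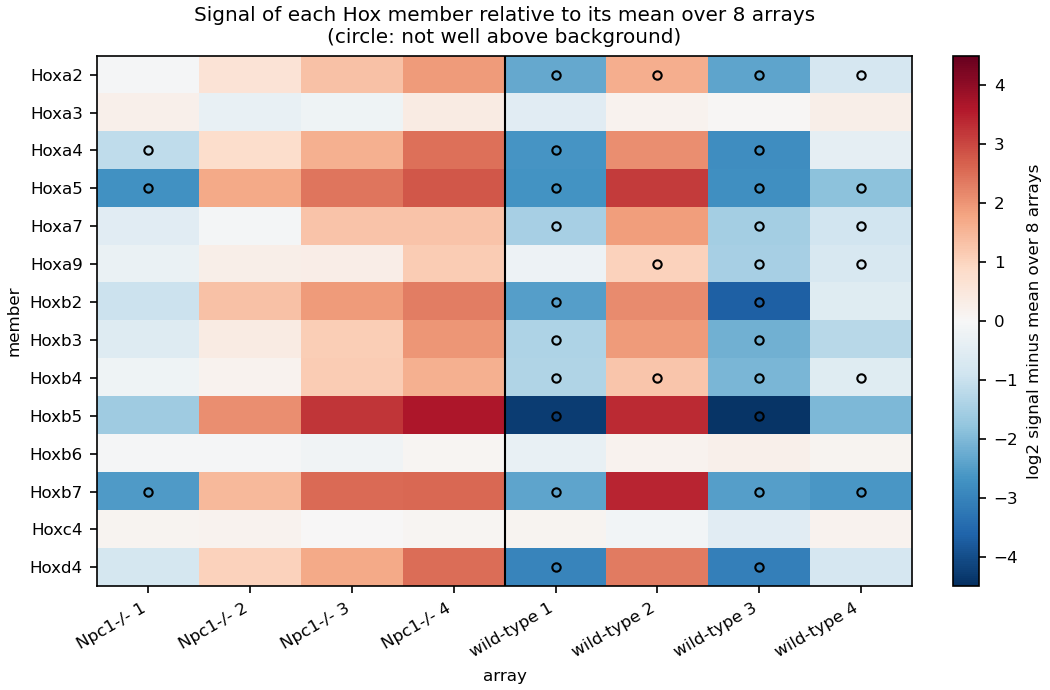
Log2 signal of each of the 14 tested members minus its mean over the 8 arrays, Npc1-/- arrays left of the line and wild-type arrays right of it, with circles where not well above background. Most rows are high on Npc1-/- arrays 2, 3 and 4 and wild-type array 2, and Hoxa3, Hoxb6 and Hoxc4 are nearly even.

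The spread within genotypes was wide for this set. The residual SD of a gene, its spread around the 2 genotype means on the log2 scale, had a median of 1.47 over the 14 members and 0.20 over all 17983 genes. Of the members, 11 exceeded the 95th percentile of all genes (0.75) and 9 the 99th (1.18). Hoxb5 ranked 5th of all genes with a residual SD of 3.08, Hoxb7 8th with 2.71 and Hoxa5 9th with 2.69. Hoxa3 (0.34), Hoxc4 (0.23) and Hoxb6 (0.20) were closer to the median gene. Dim signals vary more on a log scale, and the part of low signal in these SDs was not tested.

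Between Npc1-/- and wild-type mice no Hox member passed at an adjusted p of 0.05 (limma with Benjamini-Hochberg adjustment over all genes), and none of the 14 passed at an unadjusted p of 0.05, against 7.4% of all genes. After adjustment 138 of all genes passed, a share of 0.767%, with 0.734% higher and 0.0334% lower in Npc1-/- mice. The lowest adjusted p of a member was 0.704, for Hoxa2. None of the 14 had groups that did not overlap, a pattern found in 4.92% of all genes.

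The fitted differences of the members that passed the filter were mostly positive, with large errors. Of the 14, 13 were above 0 and 9 were at least 1 log2 unit higher in Npc1-/- mice, against 1.69% of all genes, and their median was 1.66, against -0.02 over all genes. These counts depend on the filter, through which Hoxa2 and Hoxb4 passed by Npc1-/- arrays alone. Without it the median of all 38 members was -0.10, and over the 3 members above background on all arrays it was 0.027. Most of the 24 members added without the filter gave only background readings, which were higher on wild-type array 2. The undetected Hoxb1, for example, had a difference of -0.34. Readings below background entered the fits at their measured values. Hoxb5 had the largest, 3.68 ± 1.83 (SE, limma adjusted p = 0.75, n = 4 arrays each). It was 2.27 ± 1.24 for Hoxb2, 2.24 ± 1.23 for Hoxd4 and 1.90 ± 0.87 for Hoxa2. The 3 members measured on all arrays lay near 0. They were at 0.03 ± 0.21 for Hoxa3, 0.17 ± 0.15 for Hoxc4 and -0.08 ± 0.14 for Hoxb6. Hoxa3 and Hoxb6 are given here with the brighter probe. Hoxa2 and Hoxb4 missed the stricter rule on each wild-type array, so their folds are given as bounds. By the more permissive rule Hoxb4 was nevertheless positive and significant on all 8 arrays, and Hoxa2 on 6. For the bound, each wild-type array was set to the higher of its own signal and the lowest signal well above background. The mean of the Npc1-/- arrays was then at least 1.57-fold higher for Hoxa2 and 1.30-fold for Hoxb4. These folds describe the 8 arrays only, since neither member passed (limma adjusted p = 0.70 and 0.75).

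Within slides the direction was not the same. On slides 2 and 4, with 1 array of each genotype, the median difference of the 14 members was 2.76 and 3.19, and 12 and 13 of them were higher in Npc1-/-. On slide 3 the mean of Npc1-/- arrays 1 and 4 was set against wild-type array 2, and the median was -1.31 and 2 were higher. Wild-type array 2 had the highest background readings, and members without detection also differed on slide 3, such as Hoxb1 by -1.75. The wild-type arrays of slides 2 and 4 read most members at background, so the sizes there are not exact. Hoxb5, above background on all 3 arrays of slide 3, differed by -2.35 log2 units there. It had 2.95% on Npc1-/- array 1 and 111% on array 4, against 92.0% on wild-type array 2. Arrays scanned on day 1 gave a median of 2.55, and day 2 held slide 3 alone. Each slide holds 1 wild-type array, so a slide and the array it carries cannot be told apart.

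Without wild-type array 2 the median difference of the members tested was 2.16 and the lowest adjusted p was 0.107, for Hoxa2, with none past the threshold. Without Npc1-/- array 4 the median was 0.87. A non-coding transcript of the HoxA cluster, Hoxaas2, was above background on 2 Npc1-/- arrays and no wild-type array, and had 0.373, 1.25, 2.00 and 3.00% on Npc1-/- arrays and 0.412, 1.59, 0.392 and 0.490% on wild-type arrays. All of its readings lay under the limit of wild-type array 2 (6.70%). Hoxaas3 and both probes of Hoxd3os1 were below background on every array.

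Genes that bind, set up or maintain Hox expression showed no call. Of the 12 TALE homeodomain cofactors and their regulators, all were tested and none passed. They had a median difference of 0.01 log2 units, Pbxip1 0.42 ± 0.13 (a PBX-interacting protein) and Meis2 0.35 ± 0.18 (a MEIS cofactor). Meis2 had 236, 247, 220.4 and 275% on Npc1-/- arrays and 164, 241, 145 and 232% on wild-type arrays, with wild-type arrays 1 and 3 the lowest. Among upstream segment regulators 8 of 15 were tested and none passed, with a median of 0.06. Cdx1, Cdx2 and Cdx4, the factors that open posterior Hox genes, were below background on every array. None of 14 retinoid signalling genes tested passed, with a median of 0.06. The Polycomb group, which keeps Hox clusters silent, had none of 28 and a median of -0.09, and the trithorax group none of 13 and -0.05.

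Among genes next to the clusters 1 of 16 tested passed, higher in Npc1-/- mice, and the others did not. It was Ttll6, a tubulin polyglutamylase gene beside HoxB. It had 4.17, 4.22, 4.27 and 3.67% on Npc1-/- arrays and 1.91, 1.79, 0.965 and 1.73% on wild-type arrays. No wild-type array read Ttll6 well above background, so it passed the filter through Npc1-/- arrays alone. Its Npc1-/- values lay under the limit of wild-type array 2. It was at least 1.64-fold higher in Npc1-/- mice by the bound used above (limma adjusted p = 0.03). The call was lost in the fits blocked by slide, scan day or replicate number, after normexp correction, with no filter and in the fit lacking wild-type array 4. The gene was not tested without any one Npc1-/- array, since too few arrays above background then remained. Skap1, another neighbour of HoxB and an adaptor of immune cells, was picked after its values were seen. It had 8.46, 10.7, 17.2 and 24.5% on Npc1-/- arrays and 4.41, 30.8, 4.10 and 7.66% on wild-type arrays; wild-type array 2 and Npc1-/- array 4 were highest. The median residual SD of the neighbours was 0.17.

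Markers of tissue next to the cerebellum varied between the same arrays in part. None of 17 tested genes of brainstem nuclei passed, with a median difference of 0.49 log2 units and 16 of 17 above 0. The 17 cerebellar identity genes tested had a median of -0.22, with 1 above 0, and none passed. The summed signal of the brainstem genes ran from 546 to 784% on Npc1-/- arrays and from 416 to 655% on wild-type arrays. The brightest of them, Slc17a6, Calca and Gata2, had differences of 0.20, 0.18 and 0.24. Chat, Isl1, Lmx1b, Calcb and Ucn, which define cholinergic or serotonergic neurons or single nuclei, were not above background on any array. Their part in the Hox values was not tested.

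Some genes of the brainstem list, picked after their values were seen, show the arrays one by one. Prph, the peripherin of motor and sensory neurons, had 11.8, 13.2, 23.0 and 47.9% on Npc1-/- arrays and 9.42, 60.9, 8.89 and 15.6% on wild-type arrays. Slc5a7, the choline transporter, had 12.2, 13.4, 13.4 and 19.8% on Npc1-/- arrays and 3.58, 26.7, 1.68 and 8.16% on wild-type arrays. For both, wild-type array 2 and Npc1-/- array 4 were highest and wild-type arrays 1 and 3 lowest. The other genes of the list did not all share this order. Slc18a3 was also highest on wild-type array 2 and Npc1-/- array 4. Its 2.83% on wild-type array 1, however, lay above Npc1-/- arrays 1 to 3 (1.65 to 2.64%). Gata3 was highest on Npc1-/- array 1 and lowest on Npc1-/- array 3. Slc6a4, the serotonin transporter, had 75.2, 63.5, 4.27 and 9.34% on Npc1-/- arrays and 1.45, 6.54, 0.554 and 21.0% on wild-type arrays. Tph2, the brain enzyme of serotonin synthesis, had 39.4, 37.3, 4.17 and 7.47% on Npc1-/- arrays and 3.03, 3.55, 3.68 and 15.1% on wild-type arrays. Both were highest on Npc1-/- arrays 1 and 2. Fev, the serotonergic transcription factor of the same list, was instead highest on Npc1-/- array 3, with 3.23, 3.29, 11.4 and 2.37% on Npc1-/- arrays and 1.98, 2.96, 1.04 and 3.13% on wild-type arrays.

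**Figure D5:**
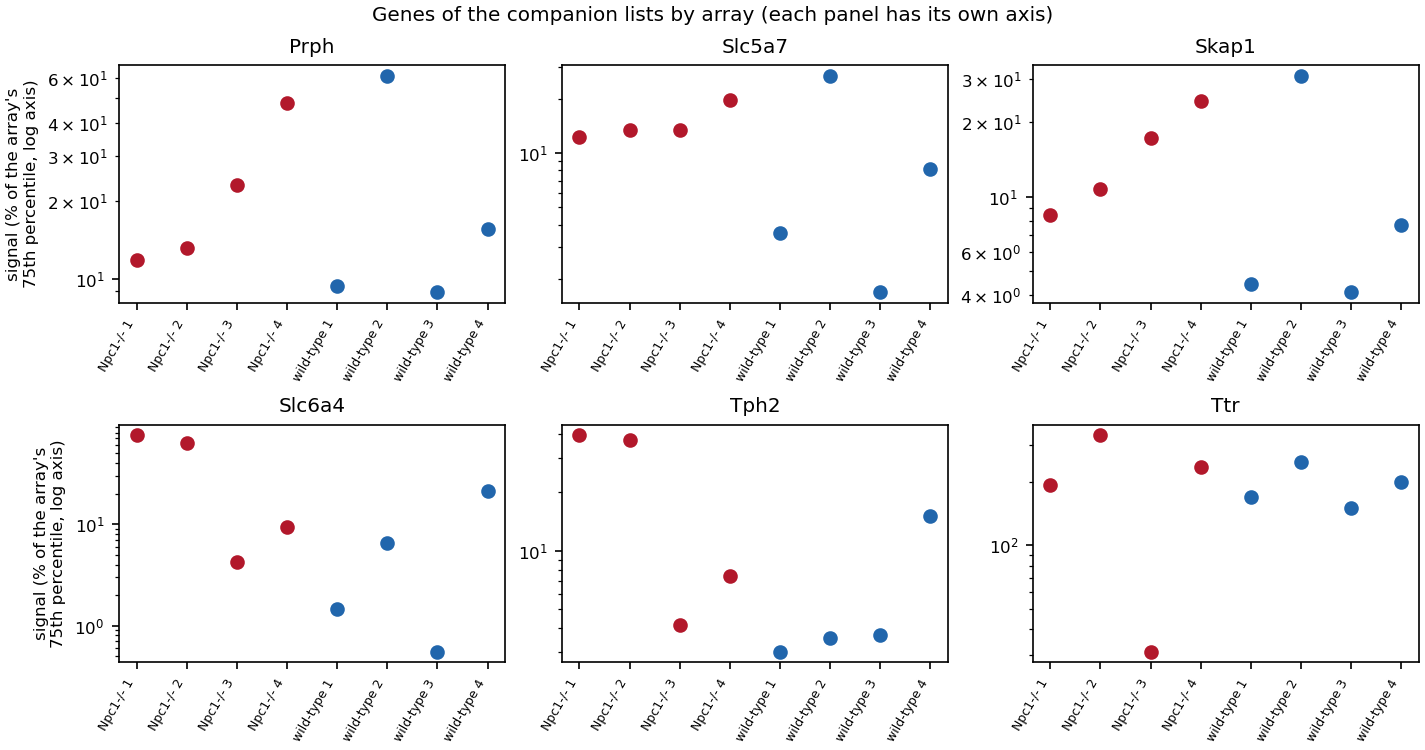
Signal of 6 genes of the companion lists by array (Npc1-/- in red, wild type in blue), as a percentage of the array's 75th percentile on a log axis of its own in each panel, with detection not marked. Prph, Slc5a7 and Skap1 peak on wild-type array 2 and Npc1-/- array 4, Slc6a4 and Tph2 on Npc1-/- arrays 1 and 2, and Ttr is lowest on Npc1-/- array 3.

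Other tissues that a cerebellar dissection could hold followed other orders. None of 15 choroid plexus genes tested passed, and their summed signal ran from 891 to 3972% on Npc1-/- arrays and from 2279 to 3663% on wild-type arrays, with Npc1-/- array 3 lowest. Ttr, the plexus transthyretin, had 31.2% on that array and between 194.5 and 334% on the other Npc1-/- arrays, against 150.3 to 248% on wild-type arrays. None of 5 midbrain and forebrain genes tested passed, and the forebrain factors Dlx1, Dlx2 and Dlx5 were below background on every array. None of 15 myelin genes passed, all 15 having differences below 0 and a median of -0.57. None of 13 fibroblast and vessel wall genes passed, and of 9 blood genes Ptprc, the leukocyte antigen CD45, rose by 0.93 ± 0.14 (adjusted p = 0.03) and Pf4, a platelet chemokine, fell by 1.81 ± 0.31 on the log2 scale (adjusted p = 0.04, both limma). With any 1 array left out, 1 or neither of these 2 calls remained, and neither did with the slide or the replicate number as a block, after quantile normalization of the processed signals or with no filter.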

How the data were processed

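RNA of 8 cerebella was hybridised to Agilent one-colour arrays. The submitters' processing notes name Agilent Feature Extraction 9.5. Its intensity values were deposited background-subtracted within each array, without scaling from one array to another, and carry mm7 coordinates, per the file headers. Here log2 processed signal minus each array's 75th percentile over non-control spots was used. Outlier spots were set to missing, spots of a probe averaged, probes kept where 4 or more of the 8 arrays were well above background, and the brightest probe used per gene (17983 genes). The genotypes were compared with lmFit and eBayes of limma 3.58.1 (R 4.3.3) over the whole table, two-sided and without other factors, with Benjamini-Hochberg adjustment over all genes and a threshold of 0.05. In data simulated for this comparison over 17983 genes, 73 of 100 changes of 1 log2 unit and 95 of 100 of 2 were recovered. The changed genes were drawn from all genes, whose median residual SD was 0.20, against 1.47 for the Hox members tested. These rates therefore do not apply to the Hox members.

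The Hox members and the 13 companion lists were chosen with earlier results of these data known. Some members, list genes and probe sequences are not reported here. Members were otherwise accounted for, with array values for those on at least 4 arrays; of each list up to 3 genes were named, the called ones with the largest change or else the brightest, and defining markers below background could be named. The 4 slides and 2 scan days, per the file headers, were used as blocks. The labels do not say that same-numbered mice are related: residuals of same-numbered arrays correlated at 0.15, 0.04, -0.44 and 0.20, so numbers were not treated as pairs. Alternatives changed the background correction, scaling, filter, probe choice, array weights, blocks and one array at a time. The number of arrays limits the precision, and p-values speak only of the spread among these 8 arrays. Plots were drawn with matplotlib 3.10.9.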

Additional observations from a re-analysis of the deposited data

Results flagged for a closer look

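In a group of 4 arrays, a value was singled out by its gap to the nearest of the others (Dixon's test). The gap had to be over 0.829 of the group's range, both on the log2 scale. This was so in 4 of 36 groups of Hox probes, and not all groups of the 49 probes were among the 36. For normally distributed values the rule singles out about 1 in 20 groups. That rate cannot be set beside this count, since wild-type array 2 had higher background readings. The undetected Hoxb1, for example, had 1.58% there against 0.367 to 0.419% on the other wild-type arrays. In 3 of the 4 groups singled out the array is wild-type array 2. Hoxa5 had 23.0% of the array's 75th percentile there, against 0.388 to 0.723% on the other wild-type arrays. Hoxb7 had 22.5% there, against 0.339 to 0.399%. The other probe of Hoxb6 had 108% there, against 0.801 to 1.40%. Hoxb8 had 0.337% on Npc1-/- array 1, a background reading, against up to 1.81% on the other Npc1-/- arrays, of which only array 3 was well above background.

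Hoxaas2, a non-coding transcript of the HoxA cluster outside the members, reached 3.00% on an Npc1-/- array and was above background on 2 Npc1-/- arrays and on no wild-type array, whose highest value was 1.59%. That value was on wild-type array 2, where the lowest signal well above background was 6.70%.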

How the results depend on the processing

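The count of Hox members past the threshold was 0 in all 19 alternatives, with a lowest adjusted p between 0.107 (without wild-type replicate 2) and 0.999 (without wild-type replicate 3), and in a fit of every probe without a filter none of 49 Hox probes passed an unadjusted p of 0.05. The number of all genes called, 138 in the report, was 27 with the replicate block, 38 with the slide as a block, 87 after quantile normalization, 59 without a filter, 88 over probes above background on all arrays, 280 with array weights and 55 to 148 with 1 array left out. The replicate number pairs no samples here. The median difference of the members was -0.10 without a filter (38 members), 0.027 over the 3 members above background on all arrays, and -1.31 within slide 3, which is scan day 2; after normexp correction and quantile normalization it was 0.42. Hoxa3 changed sign, to -0.078 with the scan day as a block, -0.060 after normexp correction, -0.042 after quantile normalization, -0.095 with array weights, and between -0.14 and 0.14 over all fits; with 1 array left out the lowest was -0.14. The other 13 members kept their sign in every fit in which they were tested. With the positive and significant flag the members detected were 27 and 23 on Npc1-/- arrays 3 and 4 and 17, 20, 14 and 22 on wild-type arrays 1 to 4.

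Of the companion lists, the number of blood genes called, 2 in the report, was 0 with the replicate or slide block, after quantile normalization and without a filter. It was 1 with the scan day as a block, after normexp correction, with the percentile taken over bright probes, over probes above background on all arrays or on at least 1, and with every probe by itself, and 0 to 1 with 1 array left out. The call of Ttll6 among cluster neighbours was lost (0) with the replicate, slide or scan day block, after normexp correction, without a filter and over probes above background on all arrays, and 0 to 1 with 1 array left out; in the last case without an Npc1-/- array, and over probes above background on all arrays, the gene was not tested. Myelin genes called, 0 in the report, were 1 with the scan day block, 2 after normexp correction, 9 with array weights and 0 to 1 with 1 array left out. In the fibroblast and retinoid lists, 1 fibroblast and 1 retinoid gene passed after normexp correction and likewise with array weights. Aldh1a2 was tested in both lists, so these counts may be of the same gene. Medians that moved were those of midbrain and forebrain genes (0.036 after normexp correction, -0.22 without a filter, -0.071 over probes on all arrays, 0.090 on at least 1, 0.053 with array weights, 0.13 to 0.42 with 1 array left out), fibroblast genes (0.31 with the slide block, 0.22 without a filter and over probes on all arrays, 0.14 to 0.30 with 1 array left out), segment regulators (-0.056 after quantile normalization) and cluster neighbours (0.018 after quantile normalization, 0.028 with the percentile over bright probes). Other causes of these changes were not tested. Dim signal limits most Hox members, since 24 of 38 were not tested.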
